A study of Mus musculus with 12 samples.

Results

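Fatty acid oxidation and the making of ketone bodies were followed through 39 genes, chosen by their gene symbols. Of these 39 genes, 37 had a probe set on the array and were measured, among 22206 probe sets tested. Acsl1, which couples fatty acids to coenzyme A, and Etfb, a subunit of the electron transfer flavoprotein, have no probe set under their symbols and were not analysed here. The measured genes comprised 19 genes of mitochondrial proteins, 9 of peroxisomal proteins and 3 (Crat, Acad11 and Ech1) whose proteins are found in both organelles. The other 6 were grouped as regulators (Ppara, Ppargc1a, Creb3l3, Pdk4, Vnn1 and Mlycd), although Vnn1 and Mlycd encode metabolic enzymes.

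RNA came from the liver (LIV) and the inguinal subcutaneous adipose tissue (SAT) of 6 male C57BL/6N mice, with 1 array for each tissue of each mouse and 12 arrays in all. The mice were 8 weeks old at the start and received LY (LY2584702 tosylate), an inhibitor of the kinase S6K1, at 25 mg/kg every 12 hours by oral gavage (HFD + LY, animals 16, 18 and 20) or vehicle (HFD, animals 8, 11 and 14). Treatment ran for 12 weeks, and for 10 of them all 6 mice ate a diet with 60% of its energy from fat. No lean mice were arrayed, so that the high-fat diet is shared by all groups. Values are log2 signals, on which a difference of 1 is a doubling.

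Long-chain fatty acids enter mitochondria as carnitine esters, which Cpt1 enzymes form on the outer membrane, Slc25a20 carries across the inner membrane and Cpt2 turns back into acyl-coenzyme A. Inside, each round of β-oxidation uses an acyl-coenzyme A dehydrogenase, a hydratase, a second dehydrogenase and a thiolase, and in the liver the resulting acetyl-coenzyme A feeds the ketone bodies. Peroxisomes shorten very long and branched chains with enzymes of their own and pass the products on to mitochondria. PPARα, the product of Ppara, is a fatty acid receptor that drives many of these genes in the mouse liver, with Ppargc1a as a coactivator.

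The tissues were distinct on their markers. All 13 of 13 hepatocyte genes were higher in LIV and 11 of 12 measured adipocyte genes were higher in SAT at an adjusted p under 0.05 (limma, Benjamini-Hochberg over all probe sets). The SAT of HFD animal 11 and HFD + LY animal 20 carried skeletal muscle transcripts. The mean of 21 muscle genes was 12.6 and 12.4 there. It was 9.14 in SAT of HFD animal 14, 7.90 to 8.0 in SAT of animals 8, 16 and 18, and 7.70 to 7.86 in LIV. Myh4, a fast myosin, read 14.4 and 14.2 in these 2 arrays and 6.93 to 7.50 in SAT of animals 8, 16 and 18. In bulk tissue, fewer cells of a type and less RNA per cell cannot be told apart. The 5222 negative control probe sets had medians of 6.70 to 7.09. No member lay below this median on any array, but 8 members lay below the 95th percentile of the controls (9.62 to 9.95) on all 6 SAT arrays and 5 on all 6 LIV arrays.

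Against this background, the oxidation genes differed far more between the tissues than with LY. In HFD mice, 31 of 37 members differed between LIV and SAT at an adjusted p under 0.05 (limma), 26 of them higher in LIV and 5 lower. The share over all probe sets was 21.4% higher and 24.7% lower. In LIV, 15 of 37 members (40.5%) were more than 1 log2 unit higher, against 6.01% of all probe sets, and 14 stayed so where genes not above the controls were set at their bound. In HFD + LY mice 29 of 37 members differed, 23 higher and 6 lower in LIV, against shares of 21.8% and 24.0% over all probe sets. RMA includes quantile normalization, yet the medians of the tested probe sets ran from 8.16 to 8.28 over the 12 arrays. Centring all arrays on their medians moved the share higher in LIV among called probe sets in HFD mice from 46.4% to 55.7%. No called member changed direction.

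**Figure D1:**
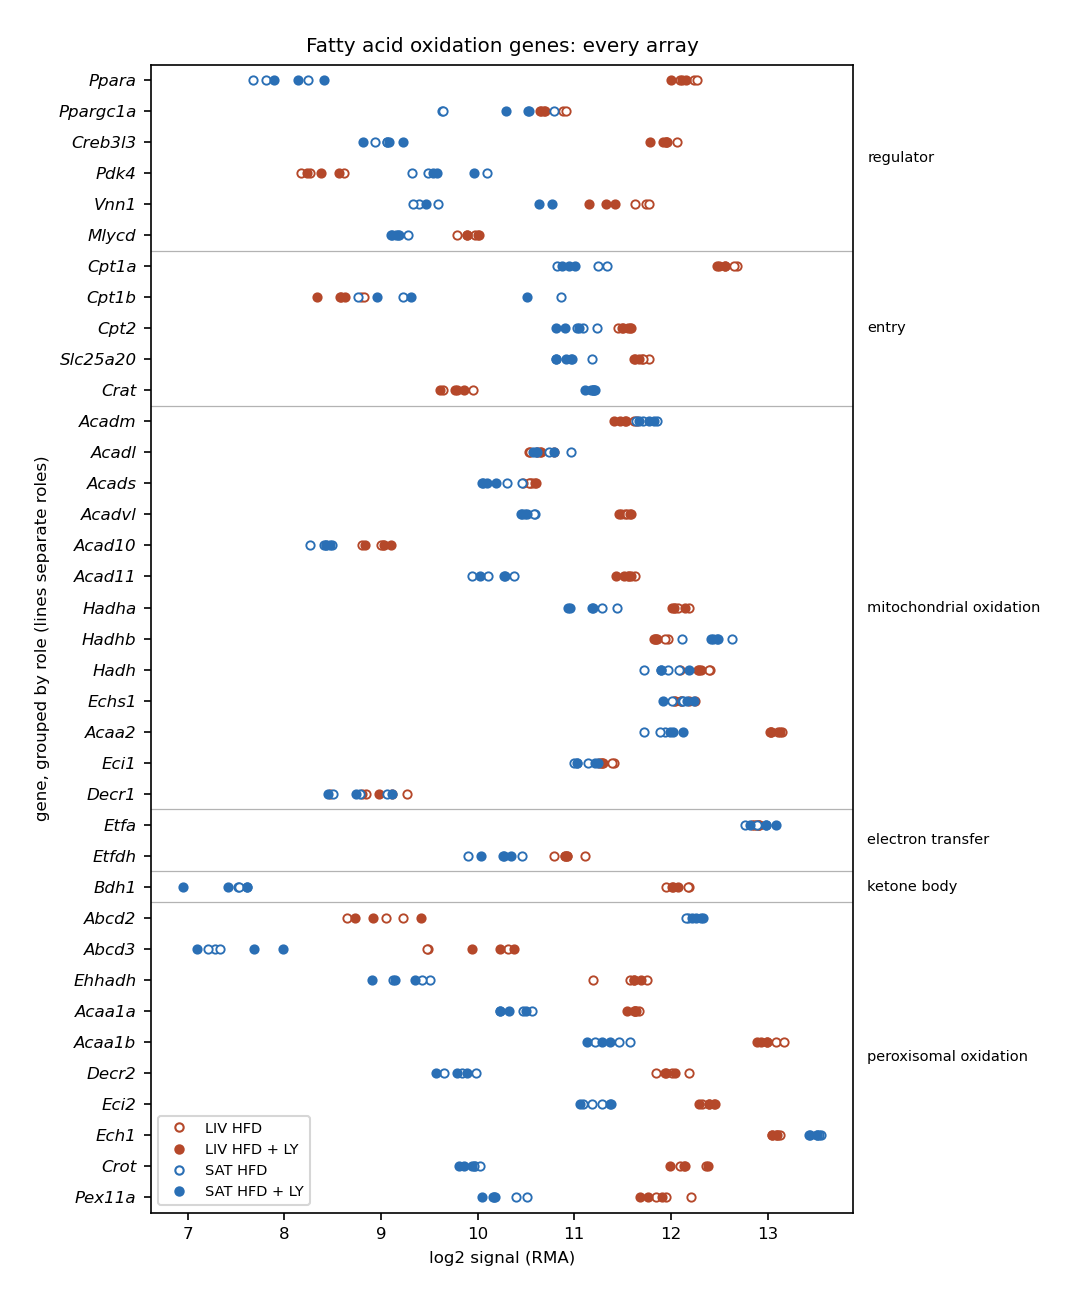
Log2 signal (horizontal axis) of the 37 measured genes (rows, grouped by role) on each of the 12 arrays. Open points are HFD and filled points HFD + LY, with LIV in red and SAT in blue; the tissues separate for Ppara, Bdh1 and Abcd2, while the open and filled points of a tissue mostly intermix.

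Among the regulators, Ppara read 12.24, 12.10 and 12.27 in LIV of the HFD mice 8, 11 and 14 and 7.81, 7.67 and 8.25 in their SAT. The groups were far apart, with a difference of 4.29 ± 0.15 (SE, n = 3 per group, limma adjusted p = 1.06e-10). Its SAT signal lay within the range of the negative controls, so that the fold is a lower bound, at least 5.78-fold against their 95th percentile. Creb3l3, a liver factor cleaved and activated at fasting, was higher in LIV by 2.97 ± 0.11 (at least 4.99-fold by the same bound). Ppargc1a was higher in LIV by 0.80 ± 0.24 (adjusted p = 0.0161), with 1 of its 3 SAT arrays below the 95th percentile of the controls. The call was lost without animal 8 or 14 (0.57 and 0.56), and the difference was 1.27 without animal 11. It was higher by 0.23 in HFD + LY mice (adjusted p = 0.466). Mlycd, which degrades the Cpt1 inhibitor malonyl-coenzyme A, had a fitted difference of 0.69 ± 0.09, but its SAT signal lay below the 95th percentile of the controls on all 6 arrays and the bound was at least 1.16-fold. Pdk4, the kinase that shuts pyruvate dehydrogenase when fat is burned, went the other way. Its LIV minus SAT difference was -1.28 ± 0.20, with LIV at 8.17 to 8.62 and SAT at 9.32 to 10.1 over all arrays, and the highest SAT signals were those of animals 11 and 20. All 6 LIV arrays and 4 of 6 SAT arrays lay below the 95th percentile of the controls, so that no fold can be given.

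Ketone body synthesis ends with Bdh1, the mitochondrial enzyme that reduces acetoacetate to β-hydroxybutyrate. Its signal in HFD mice was 12.19, 11.95 and 12.17 in LIV and 7.52, 7.62 and 7.53 in SAT. The fitted difference was 4.55 ± 0.14 (limma adjusted p = 2.43e-11), and SAT lay within the negative controls, so that LIV was at least 5.39-fold higher by the same bound. Oxct1, which activates ketone bodies for burning and is not one of the 39 genes, went the other way. It read 8.18 to 8.62 in LIV, within the range of the negative controls, and 13.22 to 13.30 in SAT of HFD mice. SAT was at least 10.4-fold higher (fitted LIV minus SAT difference -4.90, limma adjusted p = 1.27e-12).

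All 9 peroxisomal genes differed between the tissues in HFD mice, 8 higher in LIV and 1 lower, with a median difference of 1.67. Of the mitochondrial genes, 13 of 19 differed, 12 higher in LIV and 1 lower, with a median of 0.38. The difference between the classes was not tested. The median over all probe sets was 0.06. With genes not above the controls in 1 tissue set at their bound, or at 0 where none could be given, the medians were 1.65 and 0.31. LIV was higher than SAT by more than 1 log2 unit in 7 of 9 peroxisomal genes and in 3 of 19 mitochondrial ones (Bdh1, Cpt1a and Acaa2) on these values. Abcd3, the transporter of branched and dicarboxylic acids, read 10.32, 9.49 and 9.48 in LIV and 7.29, 7.33 and 7.21 in SAT of HFD mice. The fitted difference was 2.49 ± 0.24, but 2 of its 3 LIV arrays and all 3 SAT arrays were below the 95th percentile of the negative controls, and the bound was at least 1.07-fold. Crot, which loads shortened chains on carnitine for export, was higher in LIV by 2.21 ± 0.11. Decr2, the peroxisomal reductase for unsaturated chains, was higher by 2.19 ± 0.12, with 1 of its 3 SAT arrays below the 95th percentile of the controls. Ehhadh, which joins the hydratase and dehydrogenase steps in 1 protein, had a fitted difference of 2.16 ± 0.15 and was at least 3.57-fold higher in LIV, as its SAT signal was not above the controls. The thiolases Acaa1b and Acaa1a followed with 1.67 ± 0.11 and 1.21 ± 0.10, Pex11a, which helps peroxisomes divide, with 1.65 ± 0.12, and the isomerase Eci2 with 1.2 ± 0.10. Acaa1a and Acaa1b are near-identical genes, and their probe sets may share targets.

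Abcd2 was the peroxisomal gene that went the other way. This transporter of very long chains read 8.65, 9.23 and 9.05 in LIV and 12.18, 12.16 and 12.31 in SAT of HFD mice. Its LIV minus SAT difference was -3.24 ± 0.17 (limma adjusted p = 5.72e-09). LIV lay under the 95th percentile of the negative controls, so that SAT was at least 5.07-fold higher. The same direction held for 2 genes whose proteins work in both organelles. Crat, the acetyltransferase of carnitine, had a LIV minus SAT difference of -1.40 ± 0.10, with 9.64 to 9.95 in LIV and 11.17 to 11.21 in SAT. On 2 of these 3 LIV arrays Crat lay below the 95th percentile of the negative controls, so that the size is not well measured. Ech1, an isomerase of dienoyl-coenzyme A, had one of -0.41 ± 0.08. Acad11, a dehydrogenase for long chains, was higher in LIV by 1.44 ± 0.11.

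**Figure D2:**
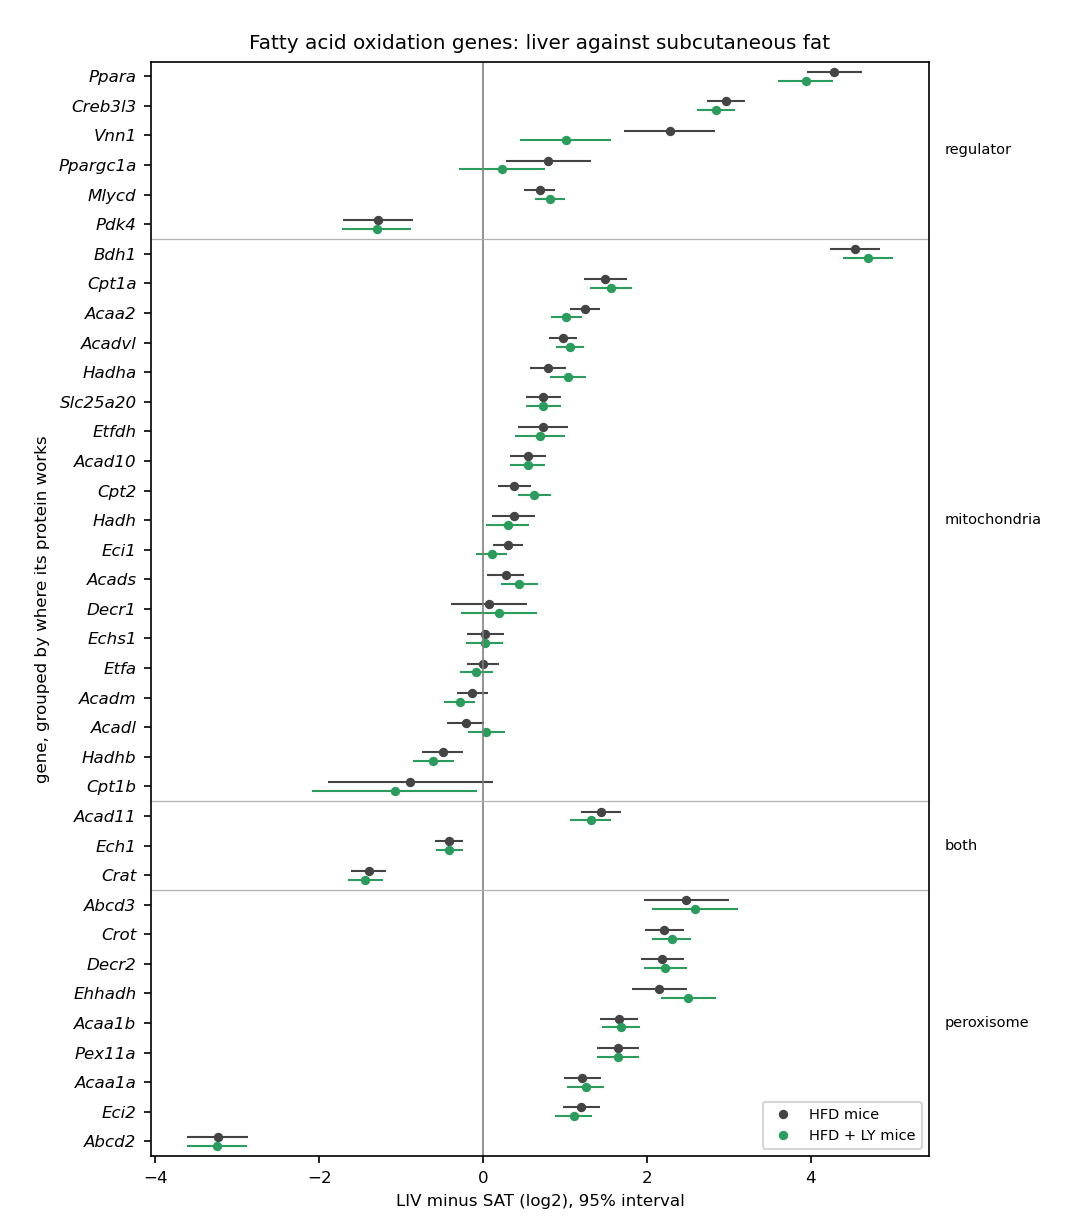
LIV minus SAT difference (horizontal axis, log2, points with 95% intervals from limma) of the 37 genes, ordered within the compartment of their proteins, in HFD mice (grey) and HFD + LY mice (green). The peroxisomal genes lie to the right of 0 except Abcd2, and the mitochondrial genes range from Bdh1 at 4.55 to Cpt1b at -0.89 in HFD mice.

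Within mitochondria the steps were uneven. At the entry, Cpt1a, the liver form of the rate-limiting transferase, was higher in LIV by 1.5 ± 0.12, the carrier Slc25a20 by 0.74 ± 0.10 and Cpt2 by 0.38 ± 0.09 (all adjusted p under 0.05). Cpt1b, the muscle form, did not pass the test, with a difference of -0.89 ± 0.46 (adjusted p = 0.137). Its SAT signal was highest in the 2 arrays with the most muscle transcripts. It read 10.87 in animal 11 and 10.52 in animal 20 and 8.76 to 9.31 in SAT of the 4 other mice, of which animal 14, the third in muscle signal, was the lowest. LIV ran from 8.34 to 8.83.

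Of the acyl-coenzyme A dehydrogenases, Acadvl for very long chains was higher in LIV by 0.97 ± 0.08, Acad10 by 0.55 ± 0.10 and Acads for short chains by 0.28 ± 0.10. Acadm for medium chains and Acadl for long chains did not differ beyond the test in HFD mice (-0.13 ± 0.09 and -0.21 ± 0.10). The call on Acads was lost without animals 11 and 20 (0.17, adjusted p = 0.238), with animals as blocks (adjusted p = 0.0529) and without animal 11, 14, 16, 18 or 20. Those on Cpt2, Eci1 and Hadh were lost without animal 14, and that on Hadh also without animal 8. Etfdh, which passes the electrons to ubiquinone, was higher by 0.73 ± 0.14, and Etfa, a subunit of the flavoprotein before it, differed by 0.002 ± 0.09. The thiolase Acaa2 was higher in LIV by 1.25 ± 0.09, Hadh by 0.38 ± 0.12 and the isomerase Eci1 by 0.31 ± 0.09. The hydratase Echs1 (0.03 ± 0.10) and the reductase Decr1 (0.08 ± 0.21) did not pass the test. Acad10 and Decr1 lay below the 95th percentile of the negative controls on all 12 arrays, so that these differences are between signals not well above background.

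Hadha and Hadhb encode the α and β subunits of the mitochondrial trifunctional protein, which together carry out the last 3 steps on long chains. Their signals ran in opposite directions between the tissues. Hadha read 12.19, 12.04 and 12.07 in LIV and 11.44, 11.29 and 11.19 in SAT of HFD mice, and Hadhb 11.84, 11.97 and 11.94 in LIV and 12.63, 12.11 and 12.48 in SAT. Hadha was higher in LIV by 0.79 ± 0.10 (adjusted p = 2.76e-05) while Hadhb had a difference of -0.49 ± 0.12 (adjusted p = 0.00394). Neither gene's tissues overlapped over the 12 arrays, but the call on Hadhb was lost without animal 8 (-0.34, adjusted p = 0.0569). The same was seen in HFD + LY mice (1.04 and -0.61). The genes sit back to back on chromosome 5, and their RefSeq promoter windows (250 bases before to 50 after a start, GRCm38.p6) overlap by 228 bases. The 272 bases between the starts, chr5:30154981-30155252, are printed on the plus strand, since 1 stretch lies before both genes. Hadha starts to its left on the minus strand and Hadhb to its right on the plus strand, and capitals mark GGGCGG, the GC box, which occurs 2 times on the plus strand.
Hadha-Hadhb: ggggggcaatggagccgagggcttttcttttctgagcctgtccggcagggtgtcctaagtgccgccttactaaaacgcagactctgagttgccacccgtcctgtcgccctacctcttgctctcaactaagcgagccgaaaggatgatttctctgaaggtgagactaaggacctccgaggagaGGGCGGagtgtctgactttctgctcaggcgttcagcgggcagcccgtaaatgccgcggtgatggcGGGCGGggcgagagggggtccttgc
A GC box on either strand was found for 23 of the 33 genes of the 39 that have a window, and for 38.2% of all 27025 symbols.

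PPARα binds a direct repeat spaced by 1 base, AGGTCANAGGTCA. Windows were found for 33 of 39 genes, all but Vnn1, Cpt1b, Crat, Acaa2, Decr1 and Abcd2. No member's window held the exact letters on either strand, which 0.0481% of all symbols did. With up to 2 mismatches, 4 members held it (Creb3l3, Echs1, Etfa and Slc25a20), against 4.4% of all symbols. The 4 sites are shown with 20 bases on each side, 5′ to 3′ on the strand of the gene, with the 13 bases of the match in capitals. That of Etfa matches on the opposite strand.
Creb3l3: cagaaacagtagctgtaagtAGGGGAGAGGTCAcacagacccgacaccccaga
Echs1: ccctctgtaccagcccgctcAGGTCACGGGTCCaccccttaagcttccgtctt
Etfa: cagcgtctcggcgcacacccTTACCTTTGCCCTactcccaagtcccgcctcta
Slc25a20: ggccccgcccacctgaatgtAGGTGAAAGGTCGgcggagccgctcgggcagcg
The runs lie at chr10:81092768-81092820, chr7:140116472-140116524, chr9:55512288-55512340 (all on the minus strand) and chr9:108662122-108662174 (plus strand). Of these 4 genes, Creb3l3 and Slc25a20 were higher in LIV (2.97 and 0.74), while Echs1 and Etfa did not pass the test between tissues. A single AGGTCA was found in 5 members (Acadm, Acadvl, Cpt1a, Creb3l3 and Echs1), against 18.1% of all symbols. These matches are descriptions of letters, and sites outside the windows were not searched.

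With LY, the liver showed little movement of these genes. No member passed an adjusted p of 0.05 in LIV (smallest 0.685), where 0.00450% of all probe sets (1 of 22206) did. At an unadjusted p under 0.05, 0 members were higher and 1 was lower, against 2.96% and 3.94% of all probe sets, and the median difference was -0.03 for the members and -0.01 for all. Median centring within LIV raised the share of higher ones among all probe sets at this threshold from 42.9% to 62.3%, and left 19 rather than 12 members above 0. HFD + LY and HFD arrays did not overlap in 6 of 37 members, against 12.5% of all probe sets. These were Acadl, which was higher (10.53 to 10.62 in HFD, 10.65 to 10.79 in HFD + LY), and Vnn1, Cpt1a, Slc25a20, Acadm and Eci1, which were lower. Cpt1a went from 12.56 to 12.68 in HFD to 12.48 to 12.56 in HFD + LY, a difference of -0.12 ± 0.09 (unadjusted p = 0.193). Slc25a20, Acadm and Eci1 differed by -0.09, -0.13 and -0.09.

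For members above the negative controls, the arrays bounded the size of any change in LIV. The 95% intervals reached a median of 0.21 to either side, and for 34 of 37 members the whole interval lay within 0.5 log2 units of 0, or 1.41-fold. Among these 34, Pdk4, Cpt1b, Acad10 and Abcd2 lay below the 95th percentile of the controls on every LIV array. Their intervals bound the signal and not a change in RNA. The same limit holds for Decr1. The 13 mitochondrial oxidation genes, Acad11 included, ran from -0.13 (Acadm) to 0.14 (Acadl). The electron transfer genes Etfa and Etfdh and the ketone gene Bdh1 had differences of -0.002, -0.03 and -0.07. The peroxisomal genes ran from -0.22 ± 0.12 for Pex11a to 0.42 ± 0.22 for Abcd3, whose HFD arrays were themselves spread (10.32, 9.49 and 9.48, against 10.38, 10.23 and 9.94 in HFD + LY). Without HFD animal 8, the difference of Abcd3 was 0.70 (unadjusted p = 0.00145), against HFD arrays that both lay below the 95th percentile of the controls. Among the regulators, Ppara, Ppargc1a and Creb3l3 had differences of -0.11, -0.14 and -0.10 in LIV, each overlapping between the groups, and Pdk4 and Mlycd of 0.04 and 0.09.

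**Figure D3:**
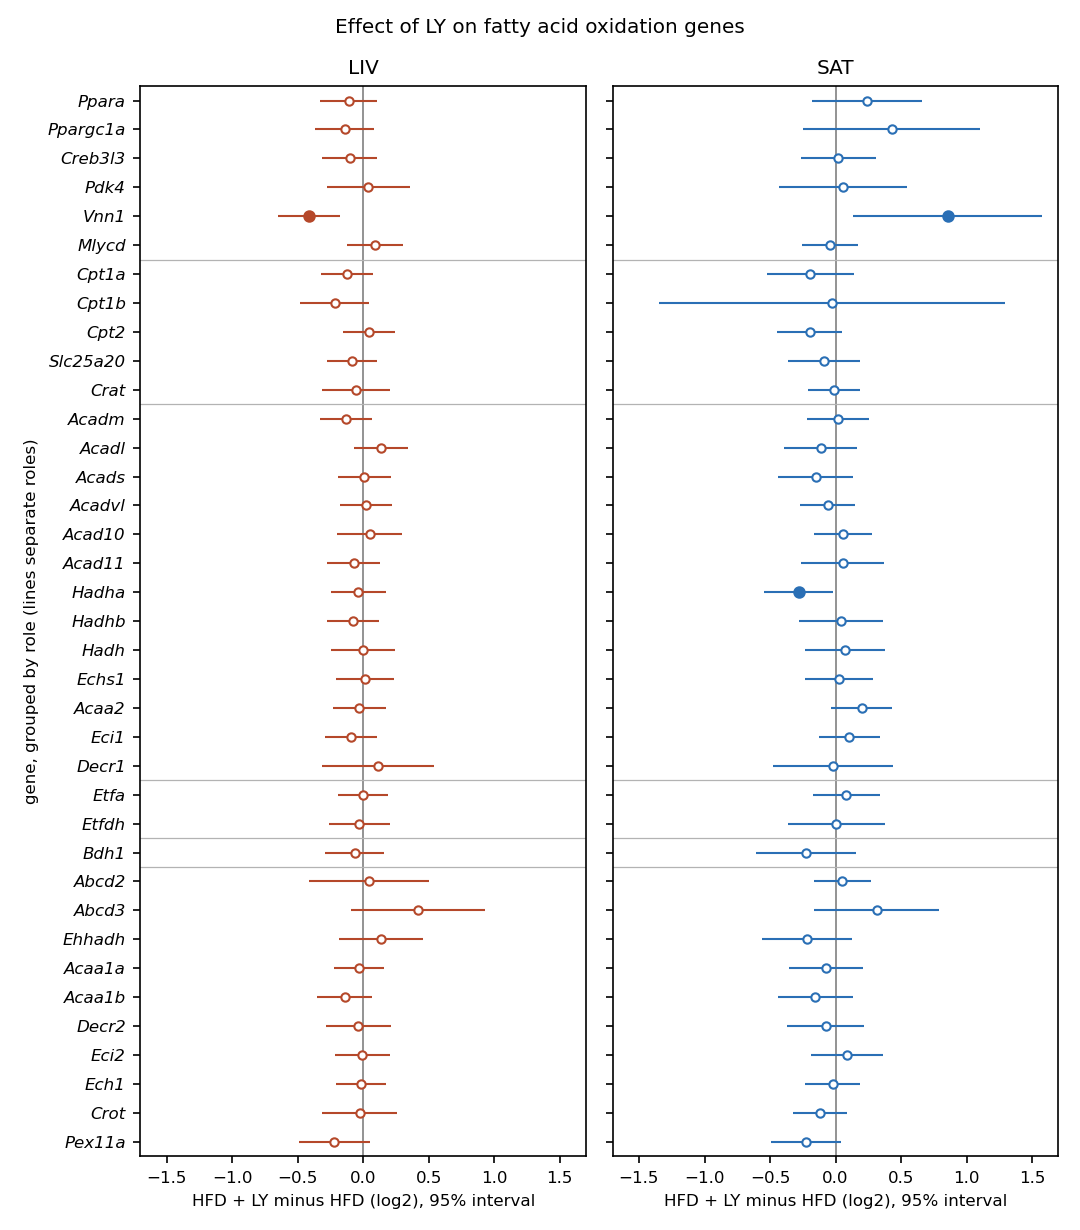
HFD + LY minus HFD difference (horizontal axis, log2) with its 95% interval from limma, for each of the 37 genes in LIV (left) and SAT (right), 3 mice per group. Filled points have an unadjusted p under 0.05: Vnn1 in LIV (-0.42), and Vnn1 (0.86) and Hadha (-0.28) in SAT.

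SAT gave a like picture with wider intervals. No member passed an adjusted p of 0.05 (smallest 0.951), as was the case for 0% of all probe sets (0 of 22206, with 1121 at an unadjusted p under 0.05). At an unadjusted p under 0.05, Vnn1 was higher and Hadha lower, 1 of 37 each, against 1.86% and 3.19% of all probe sets. The arrays of the groups did not overlap in 3 of 37 members (Acaa2 higher, Hadha and Crot lower), against 9.49% of all probe sets. Quantile normalization within SAT moved the share of higher ones among all probe sets at this threshold from 36.8% to 49.1%. The 95% intervals reached a median of 0.28 to either side and 1.32 for Cpt1b, and 27 of 37 intervals lay within 0.5 log2 units of 0. Among these 27, Creb3l3, Mlycd, Acad10 and Decr1 lay below the 95th percentile of the negative controls on every SAT array, so that their intervals do not bound a change in RNA. Hadha read 11.44, 11.29 and 11.19 in HFD and 10.94, 10.95 and 11.19 in HFD + LY, a difference of -0.28 ± 0.11 (unadjusted p = 0.0387, adjusted p = 0.963). The lowest HFD array and the highest HFD + LY array nearly touched. Its partner Hadhb differed by 0.04 ± 0.14 and in LIV Hadha differed by -0.04 ± 0.09. The call on Hadha was lost in the methods' t-test (unadjusted p = 0.0603), after quantile normalization within SAT (-0.25, unadjusted p = 0.0771), and without animal 8, 11, 16 or 18.

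Vnn1, an ectoenzyme that releases pantothenic acid, a precursor of coenzyme A, and a known target of PPARα in mouse liver, was the 1 member called at an unadjusted p in both tissues. In LIV it read 11.74, 11.62 and 11.78 in HFD and 11.15, 11.33 and 11.42 in HFD + LY. All 3 treated livers lay below all 3 controls, and the difference was -0.42 ± 0.10 (1.33-fold, unadjusted p = 0.00326, adjusted p = 0.685). In 1 fit of all 12 arrays its unadjusted p was 0.131. In SAT it read 9.39, 9.59 and 9.33 in HFD and 10.63, 10.77 and 9.46 in HFD + LY. Animals 16 and 18 were high and animal 20, 1 of the 2 muscle-rich arrays, sat among the controls. The fitted difference was 0.86 ± 0.31 (unadjusted p = 0.0257, adjusted p = 0.951). The 95% interval of this difference was 0.13 to 1.58. All 3 HFD arrays and that of animal 20 lay below the 95th percentile of the negative controls. Against that percentile, the mean of Vnn1 was at least 1.54-fold higher with LY. This bound includes animal 20 and leaves out the spread of the arrays. The part of the muscle signal in Vnn1 was not tested. The call was lost in the methods' t-test (unadjusted p = 0.113), and without animal 8, 14, 16 or 18 (0.83, 0.80, 0.68 and 0.61). With array weights, which down-weighted the 2 muscle-rich arrays, it was 1.2 (adjusted p = 0.0309), where 1.6% of all probe sets passed.

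The difference between the tissues in the response of Vnn1, taken as LIV minus SAT, was -1.27 ± 0.35 (limma interaction on 12 arrays, unadjusted p = 0.00422, adjusted p = 0.663). It was the 1 member of 37 at an unadjusted p under 0.05, against 6.21% of all probe sets, and 0 members passed an adjusted p of 0.05, against 0.0405%. With the animal as a block, Ehhadh joined Vnn1 (0.35, unadjusted p = 0.047). The size of this difference carries the same limit, as the SAT controls were not above background. The fitted LIV minus SAT difference of Vnn1 was 2.28 ± 0.26 in HFD mice, a bound of at least 4.12-fold, and 1.01 in HFD + LY mice (adjusted p = 9.55e-06 and 0.0061). The latter was 0.53 without animal 20.

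The results in SAT depended on the 2 muscle-rich arrays. Without animals 11 and 20, which leaves 2 mice per group and was chosen after seeing the data, Vnn1 was higher with LY by 1.34 ± 0.10 (adjusted p = 0.0033) and Ppargc1a by 0.89 ± 0.09 (adjusted p = 0.00976). Over all probe sets 2.58% then passed an adjusted p of 0.05. In the controls left, animals 8 and 14, Ppargc1a read 9.63 and 9.64. The 95th percentile of the negative controls on these arrays was 9.70 and 9.62, and Vnn1 lay below it on both. The sizes of these differences are thus not well measured. With all arrays, Ppargc1a read 9.63, 10.79 and 9.64 in SAT of HFD mice 8, 11 and 14 and 10.53, 10.53 and 10.29 in HFD + LY, and the difference was 0.43 ± 0.29 (unadjusted p = 0.182). The high control was animal 11, whose muscle signal was the highest, while muscle-rich animal 20 was the lowest of the treated arrays (10.29). The part of the muscle signal in Ppargc1a was not tested. The response of Ppargc1a in LIV minus that in SAT was -0.57 ± 0.34 with all arrays and -1.12 without animals 11 and 20 (unadjusted p = 1.8e-05). In the same 4 SAT arrays, 9 of 37 members had an unadjusted p under 0.05, against 18.2% of all probe sets. Abcd3, below the 95th percentile of the controls on every SAT array, was higher by 0.59, and Cpt1a, Cpt2, Acads, Hadha, Acaa1b and Pex11a were lower by 0.26 to 0.38 on the log2 scale. None of these 7 passed an adjusted p of 0.05.

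**Figure D4:**
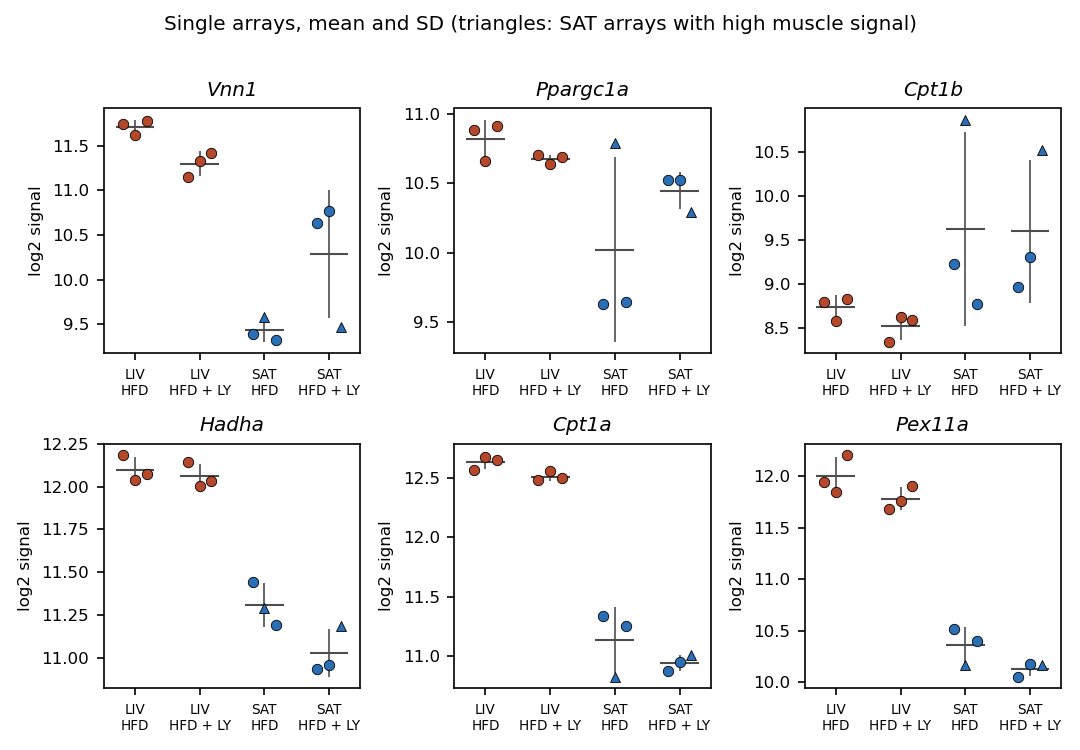
Log2 signal (vertical axis, not starting at 0) of 6 genes on every array by group, with the mean (bar) and SD (line) of 3 mice. Triangles mark the SAT of animals 11 and 20, where Cpt1b was high (10.87 and 10.52) and where Vnn1 was 9.59 and 9.46.

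None of the remaining members passed an unadjusted p of 0.05 in SAT. Cpt1a, Cpt2, Slc25a20 and Crat differed by -0.19, -0.20, -0.09 and -0.01, and Cpt1b by -0.02 ± 0.57. The mitochondrial oxidation genes other than Hadha ran from -0.15 (Acads) to 0.20 (Acaa2, with 11.94, 11.72 and 11.89 in HFD and 12.03, 12.13 and 11.99 in HFD + LY). Etfa and Etfdh differed by 0.08 and 0.01, and Bdh1 by -0.22 at a level within the negative controls (-0.37 without animal 20, unadjusted p = 0.0434). The peroxisomal genes ran from -0.23 ± 0.12 (Pex11a) to 0.31 ± 0.21 (Abcd3, 0.56 without animal 20, unadjusted p = 0.00265). Pex11a was lower by nearly the same amount in both tissues (-0.22 in LIV). Its values were 11.95, 11.85 and 12.21 against 11.68, 11.76 and 11.90 in LIV and 10.51, 10.16 and 10.40 against 10.05, 10.18 and 10.17 in SAT. The groups overlapped in both tissues and neither difference passed the test (unadjusted p = 0.0974 and 0.0856). Ppara, Creb3l3, Pdk4 and Mlycd differed by 0.24, 0.02, 0.05 and -0.04 in SAT.

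Other genes of these pathways were read from lists beside the 39. Over all probe sets, 2.96% were higher and 3.94% lower in LIV by the unadjusted threshold of 0.05, and 1.86% and 3.19% in SAT. Of 44 measured genes of oxidation and ketone metabolism, 1 was higher (Abcd4, a lysosomal transporter of the same family as Abcd2, 0.33, unadjusted p = 0.00736) and 1 lower (Oxct1) in LIV at an unadjusted p under 0.05. Abcd4 read 9.06 to 9.24 in HFD and 9.44 to 9.60 in HFD + LY livers. These signals lay below the 95th percentile of the negative controls on every array, so that no fold can be given. In SAT 1 was higher (Acacb, which makes malonyl-coenzyme A at the mitochondrion, 0.33) and 1 lower (Oxct1). None of these 44 genes passed an adjusted p of 0.05 in either tissue (limma). Oxct1 was called lower with LY in both tissues at the unadjusted threshold only. It read 8.62, 8.18 and 8.26 against 8.0, 7.87 and 7.84 in LIV, a level within the negative controls, and 13.30, 13.22 and 13.24 against 12.96, 12.98 and 13.11 in SAT. The groups did not overlap in either tissue, with differences of -0.45 (unadjusted p = 0.0073) and -0.24 (unadjusted p = 0.0327). In LIV, Oxct1 lay below the 95th percentile of the negative controls on every array, so that no fold can be given there. Of 12 measured genes of peroxisome biogenesis, 1 was higher in LIV (Pex2, 0.25) and none was called in SAT. Pex2 (8.35 to 8.78) also lay below the 95th percentile of the negative controls on every LIV array.

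Of 38 other measured targets of PPARα, 1 was higher and 7 were lower in LIV at an unadjusted p under 0.05, with a median difference of -0.09, and 0 higher and 2 lower in SAT (Aldh1l1 and Me1), with a median of -0.02. None passed an adjusted p of 0.05 (limma), and the shares of all probe sets are those above. Those of smallest p in LIV were Cd36 (-0.96), the thioesterase Acot3 (-0.92), the fatty acid transport protein Slc27a1 (-0.49) and the lipid droplet protein Cidec (-0.50). In LIV 30 of the 38 targets were not called, and 11 of the 38 lay above 0. Cd36, a fatty acid transporter, read 10.18, 9.65 and 10.10 in HFD and 8.97, 9.28 and 8.80 in HFD + LY livers and differed by -0.01 in SAT. All 3 treated livers and 1 control lay below the 95th percentile of the negative controls. Against that percentile, the means of Cd36 and Acot3 were lower with LY by at least 1.05-fold and 1.09-fold. These bounds leave out the spread of the arrays. Slc27a1 and Cidec lay below that percentile on all 3 treated arrays and on 2 and 3 of the control arrays, and no fold can be given for them. The response of Cd36 differed between the tissues by -0.94 (limma interaction, unadjusted p = 0.000732). In LIV, 3 of 12 adipocyte genes were lower at an unadjusted p under 0.05, Cidec among them, and the mean of the adipocyte list was 8.37 to 8.45 in HFD and 8.24 to 8.33 in HFD + LY livers. Of 9 measured macrophage genes, 2 were lower (Cd14 and Lyz2) and 8 lay below 0, with a median of -0.35, and the mean of the list was 8.28 to 8.52 in HFD and 8.0 to 8.27 in HFD + LY livers. Of the marker genes called lower, Lep (6.53 to 7.21), Cidec, Cd14 (7.62 to 8.38) and Lyz2 (7.97 to 8.76) lay below the 95th percentile of the negative controls on every LIV array. Fabp4, the other adipocyte gene called lower, read 9.71 to 10.51. Every measured macrophage gene except Clec4f lay below that percentile on every LIV array, and Clec4f was above it only in animal 8 (10.13). The sizes of these marker changes, and the median and means of the macrophage list, are thus not well measured. The part of the marker values in the lower target genes was not tested.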

How the data were processed

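Deposited values are log2 signals of 12 arrays, made by the authors with RMA (background correction, quantile normalization, probe summary). The labels name RMA and limma and give no versions or scan dates. From 28846 probe sets, 6640 controls were removed. The 22206 tested comprised 19572 with 1 symbol, 0 with several and 2634 without, and were not filtered on signal. Each measured member had 1 probe set.

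HFD + LY minus HFD was tested per tissue with limma 3.58.1 (R 4.3.3, constant prior, 4 residual degrees of freedom, threshold 0.05), and p-values were adjusted over the 22206 probe sets by the Benjamini-Hochberg method. Tissue differences and the interaction used 12 arrays. Per the labels, animal numbers recur in both tissues, and the study's text speaks of both tissues of the same animals, which pairs the arrays. Over probe sets, the deviations of an animal's LIV and SAT arrays from their groups correlated by -0.067 to 0.21. Precision is limited by the number of arrays. With 3 against 3, an exact two-sided permutation test reaches p = 0.1 at best.

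All 39 members were to be named, with the genes that mark a cell type and up to 4 genes per list by smallest p. Members and lists were chosen with earlier results of these data known. Promoter windows are from RefSeq (GRCm38.p6). The fits were tested on simulated data. Alternatives were 1 fit for 12 arrays, an intensity trend, other scaling, leaving out the dimmest 25% of probe sets, array weights, the methods' t-test, an animal block and leaving out each animal. Leaving out animals 11 and 20 was added after seeing the data. Python 3.11.15 and matplotlib 3.10.9 made the figures.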

Additional observations from a re-analysis of the deposited data

Results flagged for a closer look

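The response of Vnn1 to LY differed between LIV and SAT by -1.27 on the log2 scale, as LIV minus SAT (SE 0.35, limma interaction, unadjusted p = 0.00422, adjusted p = 0.663). Vnn1 was lower in 3 of 3 treated livers than in any control liver and higher in 2 of 3 treated SAT samples than in any control SAT. All 3 control SAT arrays and that of animal 20 lay below the 95th percentile of the negative controls, so that the size of the SAT change, and of this difference, is not well measured. Without animal 20, whose SAT was rich in muscle transcripts and read among the controls, the difference was -1.74 (limma interaction, unadjusted p = 5.49e-07). In that setting 8.77% of all probe sets had an unadjusted p under 0.05. With any other animal left out, it ran from -1.02 (animal 16, unadjusted p = 0.0289) to -1.39 (animal 11, unadjusted p = 0.00919).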

How the results depend on the processing

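The number of members at an unadjusted p under 0.05 was small and moved with the settings. The share of all probe sets is in parentheses. In LIV it was 1 (6.9%), 0 in 1 fit of 12 arrays (6.5%), 4 with an intensity trend (7.54%), 2 with array weights (8.35%), 4 in the methods' t-test (6.71%), and 1 to 2 when 1 animal was left out. In SAT it was 2 (5.05%), 11 with array weights (21.4%), 0 in the methods' t-test (4.81%), 9 without animals 11 and 20 (18.2%), and 0 to 5 when 1 animal was left out (0 without 8, 16 or 18, and 5 without 11 or 20). For the interaction it was 1 (6.21%), 2 with the paired fit by replicate block (6.62%), 3 with an intensity trend (6.53%), 3 without animals 11 and 20 (10.9%), and 1 to 3 when 1 animal was left out. The array weights of SAT ran from 0.319 (animal 20) to 4.46 (animal 16). The cause of these moves was not tested. The methods' t-test called 1491 probe sets in LIV and 1069 in SAT before, and 0 and 0 after, Benjamini-Hochberg adjustment.

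The 31 (HFD) and 29 (HFD + LY) members that differed between the tissues became 30 and 30 with the replicate block, which lost Acads in HFD and gained Hadh in HFD + LY, and ran from 26 to 30 and from 28 to 31 when 1 animal was left out. No called difference of a member changed sign under the alternatives run. Each member had 1 probe set, so averaging probe sets could change nothing. At 3 mice per group, changes under about 0.21 (LIV) and 0.28 (SAT) log2 units lay within the median 95% interval.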
